A study of Arabidopsis thaliana with 9 samples.

Results

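LHW (LONESOME HIGHWAY, AT2G27230) and SACL1 (AT5G09460) are 2 Arabidopsis thaliana genes for basic helix-loop-helix (bHLH) transcription factors, and each was read by the 1 probe set that names it alone, among 38408 probe sets in all. The platform and gene tables carry AT5G09460 by its locus tag only. The name SACL1 is the one used in the field for that locus. One-colour Affymetrix arrays measured transcripts in 9 samples of wild-type Col-0 cotyledons from 6-day-old seedlings grown in MS liquid medium under continuous light. For all, the treatment text gives 48 hours of preculture. Its medium held 1.25 mg/L 2,4-D (an auxin), 0.25 mg/L kinetin (a cytokinin) and 10 µM bikinin (a GSK3 kinase inhibitor). VISUAL-CC is a culture that turns leaf cells into vascular cells and on into phloem companion cells (CC). The text then gives a move to the second medium of VISUAL-CC and collection 96 hours after CC induction. The labels give 3 groups of 3: CC-S, where CC differentiation is strongly induced, CC-M, where it is moderately induced, and VISUAL, where it is not. All 9 samples carry the same treatment text, so it gives CC induction for VISUAL as well. The difference between the media of CC-S, CC-M and VISUAL is not stated in it. Whether the samples of a group were separate cultures is not labelled, so the p-values reflect the spread among these arrays, which may be technical. With 3 arrays a group, precision is limited.

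LHW works as a dimer with bHLH partners of the TMO5 family. In the root and embryo this dimer promotes the divisions that widen the young vascular cylinder, through local synthesis of cytokinin by LOG enzymes. Proteins of the SAC51 family, to which SACL1 belongs, bind LHW and compete with its TMO5 partners, which limits the activity of the dimer. Transcripts of this family carry upstream reading frames that hold back translation, and thermospermine, a polyamine made in young xylem by ACL5, relieves that block. The arrays measured transcript, not protein.

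LHW transcript was highest under strong induction. Its log2 signals were 8.48, 8.53 and 8.26 on the CC-S arrays of replicates 3, 4 and 5. They were 8.27, 8.0 and 7.79 on the CC-M arrays and 8.02, 7.96 and 7.79 on the VISUAL arrays, in the same order of replicates. All CC-S arrays lay above all VISUAL arrays, while CC-M spanned the gap, its replicate 3 just above the lowest CC-S array and its replicate 5 level with the lowest VISUAL array. The group means were 8.42 ± 0.14 (SD, n = 3) in CC-S, 8.02 ± 0.24 in CC-M and 7.92 ± 0.12 in VISUAL. In that order, neither CC-S and CC-M nor CC-M and VISUAL were told apart by the test.

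SACL1 transcript had another order, with CC-M at the bottom. Its log2 signals were 6.80, 6.37 and 6.46 on the CC-M arrays of replicates 3, 4 and 5. On the CC-S arrays they were 7.08, 6.96 and 6.78, and on the VISUAL arrays 7.23, 7.28 and 7.09. All CC-M arrays lay below all VISUAL arrays, and the CC-S arrays fell between, the highest of them just under the lowest VISUAL array and the lowest of them just under the highest CC-M array. Group means were 7.20 ± 0.10 (SD, n = 3) in VISUAL, 6.94 ± 0.15 in CC-S and 6.54 ± 0.23 in CC-M. Of the neighbours in this order, neither VISUAL and CC-S nor CC-S and CC-M were told apart by the test.

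**Figure D1:**
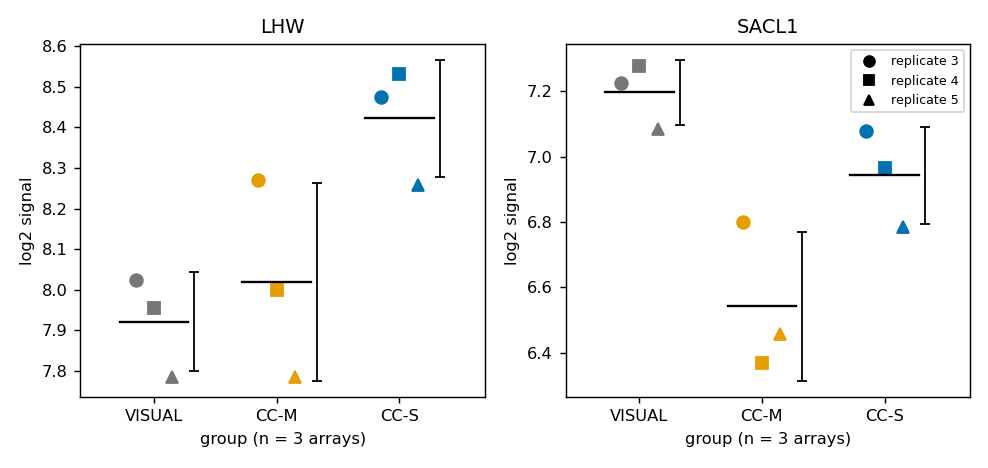
Log2 signal of LHW (left) and SACL1 (right) on each of the 9 arrays, by group. Points are arrays, with the shape giving the replicate number, horizontal lines are group means and bars are ± 1 SD (n = 3). For LHW the CC-S arrays (8.26 to 8.53) lie above the VISUAL arrays (7.79 to 8.02), and for SACL1 the CC-M arrays (6.37 to 6.80) lie below the VISUAL arrays (7.09 to 7.28).

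CC-S was set against VISUAL to ask what differs where companion cells were strongly induced. LHW rose 1.42-fold, which is 0.50 on the log2 scale (SE 0.13), with a 95% interval of 0.20 to 0.80 (limma adjusted p = 0.0305). SACL1 had a log2 change of -0.25 with an interval of -0.55 to 0.05 (limma adjusted p = 0.247), and its 3 CC-S values were below its 3 VISUAL values. A call here is a limma p under 0.05 after Benjamini-Hochberg adjustment over all probe sets. By that rule 19.2% of all probe sets were called in this comparison, 10.1% as higher and 9.07% as lower, and the groups did not overlap at 32.6%. The rise of LHW was of common size, since 24.1% of probe sets had a larger change in either direction. Its call ended without CC-S replicate 3 or 4 (adjusted p = 0.0936 and 0.11), without CC-M replicate 4 (0.0502) and without VISUAL replicate 4 or 5 (0.0602 and 0.101).

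Moderate induction was compared with VISUAL in the same way, and there SACL1 was the gene that passed the test. It fell by 0.66 on the log2 scale, with an SE of 0.13 and a 95% interval of -0.96 to -0.35 (limma adjusted p = 0.0151), so that its CC-M signal was 0.635 times that of VISUAL. LHW had a log2 change of 0.10 with an interval of -0.21 to 0.40 (limma adjusted p = 0.739). Of all probe sets 11.6% were called, 6.49% as higher and 5.15% as lower, the groups did not overlap at 27.6%, and 12% of probe sets had a larger change than SACL1. The call of SACL1 ended without CC-M replicate 4 (adjusted p = 0.0584) or CC-M replicate 5 (0.0552). The comparisons of CC-S and of CC-M with VISUAL share the 3 VISUAL arrays.

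Between CC-S and CC-M both genes were higher in CC-S by almost the same amount, and neither was called. LHW differed by 0.40 on the log2 scale, with an interval of 0.10 to 0.71 (limma adjusted p = 0.247). SACL1 differed by 0.40, with an interval of 0.10 to 0.70 (limma adjusted p = 0.243). Only 0.0208% of probe sets were called in this comparison, which is 8 of 38408. In both genes the ranges of the groups overlapped, where 18.1% of probe sets had none in common, at 1 CC-S array (replicate 5) and 1 CC-M array (replicate 3). The difference in LHW between strong and moderate induction was therefore not shown by the test, although LHW was called against VISUAL in CC-S and not in CC-M. The same holds for SACL1, called against VISUAL in CC-M and not in CC-S.

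**Figure D2:**
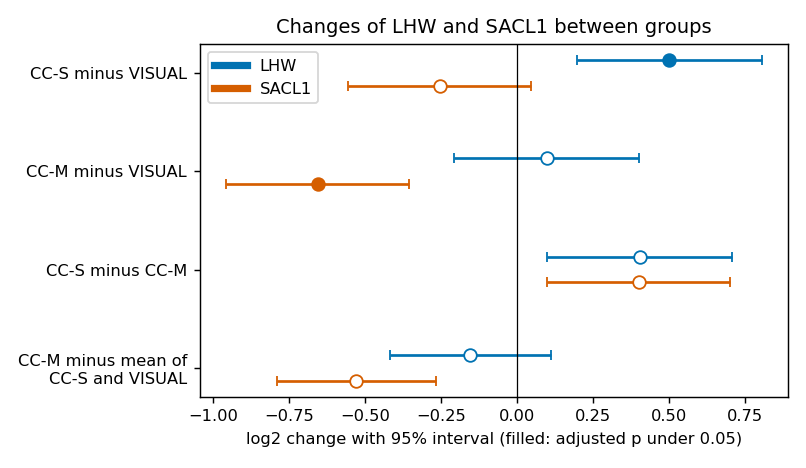
Log2 changes of LHW and SACL1 (horizontal axis) in the 3 comparisons between groups and in the comparison of CC-M with the mean of CC-S and VISUAL. Points are differences of mean log2 signal with 95% intervals from limma, filled where the adjusted p is under 0.05. The filled points are LHW in CC-S against VISUAL (0.50) and SACL1 in CC-M against VISUAL (-0.66).

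A further contrast set CC-M against the mean of CC-S and VISUAL, where a gene that moves evenly with the strength of induction has a value of 0. SACL1 was below that midpoint by a log2 difference of -0.53, with an interval of -0.79 to -0.27 (limma adjusted p = 0.0747). This missed the threshold over all probe sets, of which 1.29% were called (0.75% above the midpoint and 0.544% below it), and 1.82% had a smaller p. LHW lay at -0.15 from the midpoint, with an interval of -0.42 to 0.11 (limma adjusted p = 0.672). Over the 3 groups together, limma's moderated F statistic was 12.5 for SACL1 (adjusted p = 0.0234) and 7.89 for LHW (adjusted p = 0.0616), and 16.7% of probe sets were called. The F call of SACL1 ended without CC-S replicate 4 (adjusted p = 0.0525), CC-M replicate 4 (0.0783) or 5 (0.0802), or VISUAL replicate 3 (0.0638) or 4 (0.0597), and LHW was called in 5 other settings (0.0173 to 0.038), among them without CC-M replicate 3. A mean lower in CC-M than in both other groups was common, at 24.9% of probe sets, but was called in both pairwise tests at 1 probe set (0.0026%), which is not that of SACL1.

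Taken within each array, the distance between the LHW and SACL1 probe sets was smaller in VISUAL than in both CC groups. A distance between probe sets is not a ratio of transcript numbers, because each probe set has its own response, so only its change between arrays is described. LHW minus SACL1 was 0.80, 0.68 and 0.70 on the VISUAL arrays of replicates 3, 4 and 5. It was 1.47, 1.63 and 1.33 on the CC-M arrays and 1.40, 1.57 and 1.48 on the CC-S arrays. Every CC-M and CC-S array was above every VISUAL array. Such a gap was common: it was found, in either direction, for 25% of all pairs of probe sets of a single gene and for 22.5% of such probe sets alone, that of SACL1 among them. The means were 1.48 ± 0.09 (SD, n = 3) in CC-S, 1.48 ± 0.15 in CC-M and 0.72 ± 0.06 in VISUAL, so the shift from VISUAL was the same in both CC groups to within their spread. In CC-M it was made of a difference of 0.10 in LHW and -0.66 in SACL1, and in CC-S of 0.50 and -0.25. The CC-M difference of LHW ranged from -0.03 without CC-M replicate 3 to 0.21 without CC-M replicate 5, so its sign rested on single arrays. No test was made of this distance, since both genes were chosen with their values known. That choice limits the limma p-values given for LHW and SACL1 themselves as well.

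**Figure D3:**
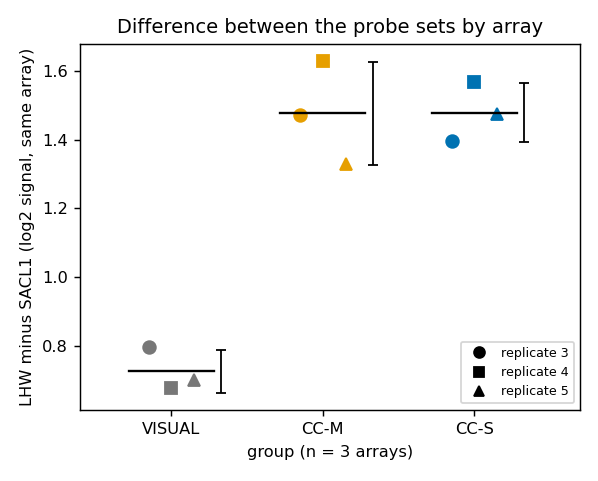
LHW log2 signal minus SACL1 log2 signal on the same array, by group. Points are arrays, with the shape giving the replicate number, lines are group means and bars are ± 1 SD (n = 3). VISUAL arrays lie at 0.68 to 0.80, and CC-M (1.33 to 1.63) and CC-S (1.40 to 1.57) arrays lie above them and overlap each other.

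Replicate 5 gave the lowest LHW signal in CC-S, in CC-M and in VISUAL, while replicate 4 was above replicate 3 in CC-S only. For SACL1 replicate 5 was lowest in CC-S and VISUAL, and replicate 4 in CC-M. The labels do not say what a replicate number stands for.

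Around LHW and SACL1, the genes of the pathway were read from 8 lists made for this comparison. The lists were chosen with earlier results of these data known, so counts over them are not a test of the pathway. Of their 50 genes 12 have a usable probe set, LHW and SACL1 among them. Of the other 10 genes, 4 rose and 1 fell in CC-S against VISUAL, where 10.1% of all probe sets rose and 9.07% fell, with a median log2 change of 0.29 beside 0.02 over all probe sets. In CC-M against VISUAL 2 rose and 1 fell, where 6.49% of all probe sets rose and 5.15% fell, with a median of 0.24 beside 0.02. Those shares cover unnamed and dim probe sets too. In the fit of single-gene probe sets only, 3864 of 16722 were called in CC-S against VISUAL and 2391 in CC-M against VISUAL, in either direction. Between CC-S and CC-M none of the 10 was called by limma, and 2 had an unadjusted p under 0.05. TMO5, SAC51, ACL5, MP and all 9 LOG genes have no probe set that names them alone and were not analysed here.

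Among the partners, 2 loci listed with the TMO5 family were read, and the tables carry both by locus tag alone. AT2G41130 had log2 signals of 7.90, 8.10 and 7.54 in CC-S, 7.57, 7.47 and 7.41 in CC-M, and 7.10, 6.99 and 6.98 in VISUAL. All arrays of both CC groups were above all VISUAL arrays, and CC-S overlapped CC-M at 1 array. It rose by 0.83 in CC-S against VISUAL (SE 0.14, limma adjusted p = 0.00318). In CC-M the change of 0.46 was not called (limma adjusted p = 0.0619), though it was in 5 other settings, at 0.0167 to 0.0428, among them without CC-S replicate 4 or 5. AT3G56770 had changes of -0.04 in CC-S and -0.15 in CC-M by its brighter probe set (limma adjusted p = 0.913 and 0.639). Its dimmer probe set gave 0.16 and 0.15, also not called.

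Of the family of SACL1, 2 further loci were read. Against VISUAL AT1G29950 had changes of the opposite sign to those of SACL1, and between CC-S and CC-M both were higher in CC-S (0.30 and 0.40, neither called). Its signals were 7.17, 7.21 and 6.92 in CC-S, 6.91, 6.74 and 6.74 in CC-M, and 6.35, 6.57 and 6.32 in VISUAL. The groups did not overlap. It rose by 0.68 in CC-S against VISUAL (SE 0.11, limma adjusted p = 0.00347), and the change of 0.38 in CC-M was not called (limma adjusted p = 0.064), but was without VISUAL replicate 4 (0.0412) and without the dimmest 40% of probe sets (0.0421). The platform table gives this probe set 2 gene numbers under the same locus tag, so it is not counted among probe sets of a single gene. AT5G50010 had a mean signal of 2.00 in VISUAL, 1.99 in CC-M and 2.21 in CC-S, close to the bottom of the range of the arrays. Its change in CC-S was 0.22 (limma adjusted p = 0.316). The 3 measured genes of the family thus had log2 changes of -0.25, 0.68 and 0.22 in CC-S and of -0.66, 0.38 and -0.01 in CC-M, in the order SACL1, AT1G29950, AT5G50010.

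Upstream of these factors, PHV, a class III homeodomain-leucine zipper gene of the group that acts in vascular patterning, had changes of -0.21 in CC-S and -0.25 in CC-M (limma adjusted p = 0.116 and 0.0806). A separate list, named for thermospermine, had 1 of 6 loci measured. That locus, AT3G09630, is carried by locus tag alone and is not taken here as an upstream gene. Its changes were 0.19 in CC-S and 0.16 in CC-M (limma adjusted p = 0.0663 and 0.158). ACL5, SAMDC4 and PAO5 of that list were not analysed here, so these changes are not a reading of thermospermine. In CC-S AT3G09630 was called after quantile normalization (0.0472) and without the dimmest 40% of probe sets (0.0496).

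Downstream, on the cytokinin side, the beta-glucosidase gene BGLU44 had changes of 0.36 in CC-S and 0.33 in CC-M that were not called (limma adjusted p = 0.309 and 0.413) and that were 0.09 and 0.06 without VISUAL replicate 5. The type-A response regulators ARR15 and ARR16, which cytokinin induces and which dampen its signalling, went opposite ways in both CC groups. ARR15 signals were 3.25, 2.80 and 4.37 in CC-S and 3.87, 4.19 and 4.40 in CC-M, against 6.18, 6.56 and 6.54 in VISUAL. The fall of ARR15 was called in CC-S and in CC-M. ARR16 signals were 10.28, 10.16 and 10.42 in CC-S and 9.91, 10.54 and 9.91 in CC-M, against 9.36, 9.41 and 9.55 in VISUAL. The rise of ARR16 was called in both, and in CC-M the call ended without VISUAL replicate 3 (limma adjusted p = 0.088), 4 (0.0665) or 5 (0.0576), after median centring of the arrays (0.0544) and with only the groups compared in the fit (0.0703).

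AT2G28510, the 1 measured locus of the vascular DOF list, which also holds DOF6 and TMO6, rose most of the measured pathway genes in both CC groups. Its signals were 9.22, 9.02 and 9.03 in CC-S, 9.24, 9.32 and 9.27 in CC-M, and 7.13, 7.99 and 7.56 in VISUAL. The CC-M arrays were the highest and did not overlap either other group. The log2 change was 1.53 in CC-S (SE 0.18, limma adjusted p = 0.000711) and 1.72 in CC-M (limma adjusted p = 0.000799), and CC-M lay 0.95 above the midpoint of CC-S and VISUAL (limma adjusted p = 0.0347).

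**Figure D4:**
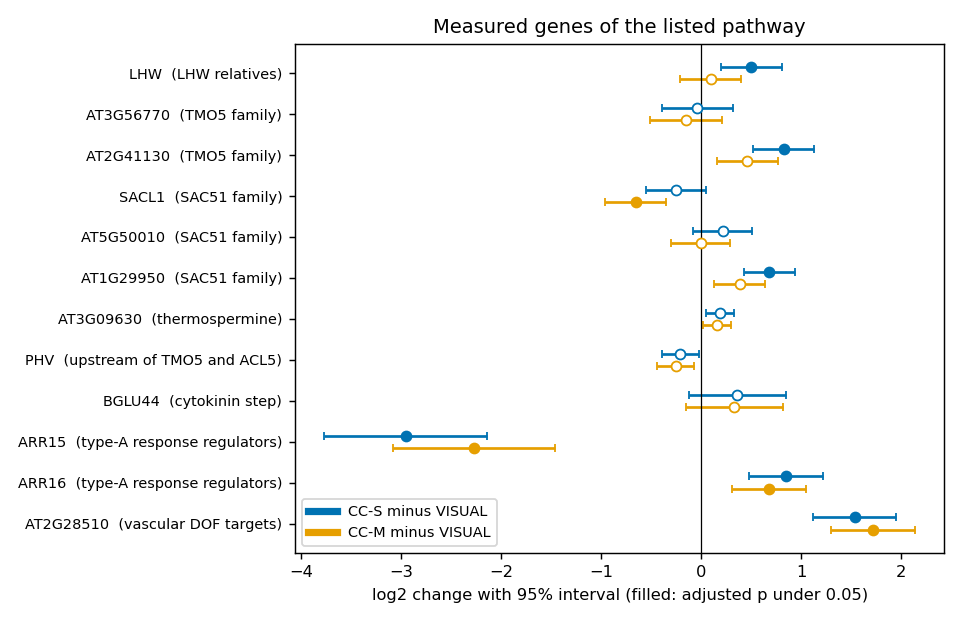
Log2 changes of the 12 measured pathway genes in CC-S (blue) and CC-M (orange) against VISUAL, with 95% intervals from limma and the list of each gene in brackets. Filled points have an adjusted p under 0.05. The largest changes are those of ARR15 (-2.95 and -2.27) and AT2G28510 (1.53 and 1.72), with LHW at 0.50 and 0.10 and SACL1 at -0.25 and -0.66.

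The genes next to LHW and SACL1 on the chromosome, chosen after the tables were seen, gave no called change by limma in any of the 3 comparisons between groups, and none had an unadjusted p under 0.05. AT2G27229 and AT2G27240, on either side of LHW, had changes of -0.08 and -0.19 in CC-S against VISUAL, at mean VISUAL signals of 1.79 and 2.38. Both signals are close to the bottom of the range of the arrays, so the lack of a call there says little. AT5G09450, before SACL1, had changes of -0.12 in CC-S and -0.08 in CC-M (limma adjusted p = 0.316 and 0.57) at a VISUAL signal of 8.05. DIC3, after SACL1, has no probe set that names it alone.

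Marker genes of cell types were set beside the members. In whole cotyledons, fewer cells of a type and less RNA per cell cannot be told apart. The 1 measured of 5 companion cell markers, AT3G12730, had a signal of 341.7 to 462.9 on the linear scale in CC-S, 172.4 to 253.7 in CC-M and 29.3 to 65.6 in VISUAL. SUC2, APL, SULTR2;1 and FTIP1 were not analysed here. LHW is itself a gene of dividing vascular cells, and 3 of 7 procambium and cambium markers were measured. Their summed linear signal was 168.7 to 207.5 in CC-S, 158.5 to 181.9 in CC-M and 144.9 to 152.0 in VISUAL. Of these, the receptor kinase gene MOL1 had log2 changes of 0.62 in CC-S against VISUAL (limma adjusted p = 0.0106) and 0.19 in CC-M (0.456). Its mean signals were dim, at 4.21 in CC-S, 3.78 in CC-M and 3.59 in VISUAL, below the array medians of 4.71 to 4.90. The receptor kinase gene PXL2, the brightest of the 3, had a change of 0.51 in CC-S (limma adjusted p = 0.0561, called in 4 other settings, at 0.0148 to 0.0425). In CC-M its change was 0.20, not called. PXL1 had changes of 0.05 in CC-S and 0.17 in CC-M. Second, dimmer probe sets, left out of the sum, were also read. That of PXL2 went the other way, with -0.43 in CC-S and -0.44 in CC-M, and all its CC values were below its VISUAL values. That of PXL1 gave -0.16 in CC-S and 0.29 in CC-M. None of these changes was called.

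Of 9 cell division genes 4 were measured, with a summed linear signal of 98.1 to 165.6 in CC-S, 74.5 to 82.5 in CC-M and 79.6 to 92.8 in VISUAL. The CC-S sums lay above those of the other groups. Of the 4 genes only MCM7, a subunit of the replicative helicase, was called against VISUAL (log2 change 0.91, limma adjusted p = 0.0105). The changes of AUR1, AUR2 and AUR3 in CC-S were 0.78, 0.07 and 0.18 (limma adjusted p = 0.185, 0.911 and 0.558). In CC-M MCM7, AUR1, AUR2 and AUR3 had changes of 0.17, 0.05, -0.72 and -0.30, none called, so the 4 genes shared no direction there. The xylem vessel markers, 3 of 11, summed to 995.8 to 1641.2 in CC-S, 1002.1 to 1753.7 in CC-M and 2061.8 to 2969.0 in VISUAL. IRX15 and IRX10, genes of xylan synthesis, fell by 1.91 and 1.03 in CC-S, and the call of IRX10 ended without CC-S replicate 4 (limma adjusted p = 0.0528). In CC-M their changes were -1.51 and -0.89 (limma adjusted p = 0.0268 and 0.0352), called in 6 and 5 of the 9 fits that leave out 1 array. IRX15-L had changes of -0.88 in CC-S and -0.65 in CC-M that were not called (limma adjusted p = 0.114 and 0.291). In CC-S that of IRX15-L was called in 2 other settings (0.0166 and 0.0378). Of 8 sieve element markers OPS was measured, with 27.9 to 39.4 in CC-S, 24.4 to 28 in CC-M and 25.5 to 27.9 in VISUAL. The mesophyll markers RCA and LHCB4.1, 2 of 4, summed to 974.1 to 1060.8, 1060.3 to 1094.9 and 846.7 to 1131.8 in CC-S, CC-M and VISUAL. The part of these cell types in the values of LHW and SACL1 was not tested.

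Other bHLH genes were read where the gene table gives a bHLH symbol or synonym, which holds for 9 probe sets and leaves out LHW and SACL1. In CC-S against VISUAL 3 of the 9 rose and 1 fell, where 10.1% and 9.07% of all probe sets did. AT1G22490 and AT1G72210, which the table lists as bHLH94 and bHLH96, rose by 1.68 and 1.13, and bHLH121 rose by 0.63, while bHLH115 fell by 0.56 (limma adjusted p = 0.0011, 0.000145, 0.0027 and 0.00834). In CC-M, where 6.49% of all probe sets rose, AT1G22490 rose by 2.00 and AT1G72210 by 0.75 (limma adjusted p = 0.000912 and 0.0019), and bHLH121 had a change of 0.35 that was not called (limma adjusted p = 0.0555; called in 6 other settings, at 0.0168 to 0.0499). The median log2 change of the 9 was 0.01 in CC-S and 0.12 in CC-M. In CC-S against CC-M limma called none of the 9, and 3 had an unadjusted p under 0.05. The genes bHLH34, bHLH104, ILR3, BHLH101 and BHLH92 were called in none of the 3 comparisons, but bHLH104 (0.38 in CC-S against VISUAL) was called there in 4 other settings, at limma adjusted p = 0.0159 to 0.0444.

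The genes most like LHW over the 9 arrays, by Pearson r of log2 signal among 16720 other probe sets of a single gene, were AT1G30590 (r = 0.979), AT5G23380 (0.973), AT3G21770 (0.972), AT3G48185 (0.968) and AT1G11210 (0.965). All 5 had their highest mean in CC-S and a CC-M mean nearer to that of VISUAL than to that of CC-S. Their CC-M minus VISUAL changes were 0.04 to 0.42, the largest in AT3G21770, with 6.17 in CC-S, 4.51 in CC-M and 4.08 in VISUAL. The most opposite were AT4G03930 (r = -0.977), AT4G27880 (-0.967) and AT5G16800 (-0.959). In all, 80 probe sets had an r over 0.9 with LHW.

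The genes most like SACL1 were GSTF3, a glutathione transferase gene (r = 0.956), AT1G79620 (0.952), TRM19 (0.951), AT5G12110 (0.947) and AT3G19300 (0.932). Each had its lowest mean in CC-M and its highest in VISUAL. GSTF3 had means of 4.94 in CC-S, 4.23 in CC-M and 5.65 in VISUAL, and AT1G79620 had means of 7.89, 7.17 and 8.48. The most opposite were AT1G22630 (r = -0.942), AT2G03110 (-0.94) and AT2G18770 (-0.937), and 26 probe sets had an r over 0.9. By the same measure LHW and SACL1 had an r of 0.162 with each other. These r values are descriptions over 9 arrays in 3 groups, which share the arrays and their processing. Genes picked by r with LHW or SACL1 share its order of groups largely through that choice.

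**Figure D5:**
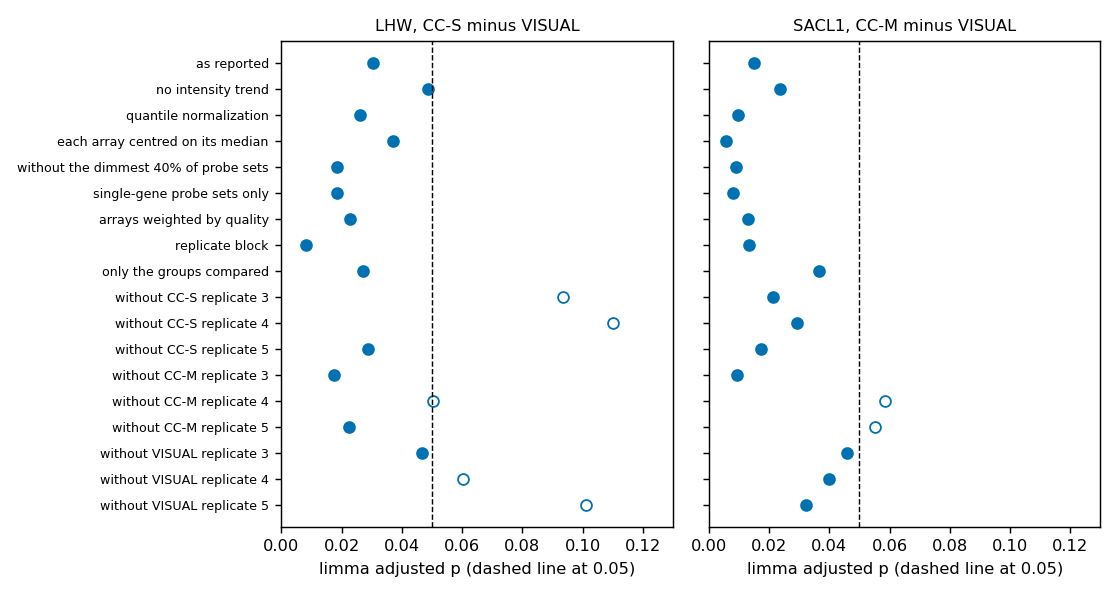
Limma adjusted p of LHW in CC-S against VISUAL (left) and of SACL1 in CC-M against VISUAL (right) as reported and under 17 other settings, with the test for a change beyond 1.5-fold left out. Filled points are under 0.05 (dashed line). All points past the line are settings that leave out 1 array: 5 for LHW, up to 0.11, and 2 for SACL1, up to 0.0584.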

How the data were processed

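Biotin-labelled cRNA of 9 samples was measured on Affymetrix arrays with 1 colour, per the labels' protocols. The table the authors deposited has log2 signals of 38408 probe sets, made with Affymetrix Expression Console per the submitters' processing notes. For its version, the summary method and the normalization, nothing is stated there. Array medians were 4.71 to 4.90 and signals 0.07 to 13.88. The values were used as deposited, and the table has no detection calls. At 33.1% of probe sets the same value was found on 2 or more arrays. That of LHW is among them, with 7.79 on replicate 5 of both CC-M and VISUAL. The cause of such ties was not tested.

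Probe sets were named through the platform's annotation and a RefSeq gene table of TAIR10.1. A single gene is named by 16722 probe sets (16574 matched), several by 759, and 20927 are unnamed here. Where a gene has several probe sets the brightest was used and the others are given. No sequence or genome was used.

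All 9 arrays entered 1 fit with limma 3.58.1 in R 4.3.3 (lmFit, then eBayes with an intensity trend, 2-sided; 6 residual and 2.65 prior degrees of freedom). The Benjamini-Hochberg adjustment ran over every probe set, with calls at an adjusted p under 0.05. The fit was tested on simulated data. Tables and plots used Python 3.11.15, pandas 2.3.3 and matplotlib 3.10.9.

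Named genes are LHW and SACL1, every measured gene of 8 pathway lists, up to 4 genes of each marker list, bHLH genes by symbol or synonym, and the 5 most alike and 3 most opposite genes by Pearson r. The members and lists were chosen with earlier results of these data known. Names that the gene table does not hold are replaced by locus tags, except SACL1. Alternatives were no trend, quantile normalization, median centring, no dim probe sets, single-gene probe sets, only the groups compared, array weights, a replicate block, a change beyond 1.5-fold, and leaving out each array.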

Additional observations from a re-analysis of the deposited data

How the results depend on the processing

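No direction of a called value was reversed in any alternative run, while the uncalled change of LHW in CC-M went from 0.10 to -0.03 without CC-M replicate 3. The rise of LHW in CC-S against VISUAL was 0.43 to 0.58 with 1 array left out and was called in 4 of those 9 fits. The fall of SACL1 in CC-M against VISUAL was -0.78 to -0.57 and was called in 7 of 9. Tested for a change beyond 1.5-fold, neither was called (0.50 and -0.66, both adjusted p = 1). In the other 8 settings both were called (limma adjusted p up to 0.0486 for LHW). SACL1 off the midpoint passed the threshold with each array centred on its median (-0.57), without the dimmest 40% of probe sets and with single-gene probe sets only (-0.53 in both), and with arrays weighted by quality (-0.56). The F statistic of LHW passed it without the dimmest 40% (7.98), with single-gene probe sets (8.41), with array weights (10.2) and in the replicate block fit (19.5). With 1 array left out F was 4.38 to 13.8 for LHW and 7.89 to 22.5 for SACL1.

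The replicate numbers were not taken as pairing the samples: deviations of same-numbered arrays correlated at -0.0328 to 0.121, over 0.1 in 2 of 9 pairs, against -0.158 to 0.0839 for other pairs. An array correlated best with its own number in 12 of 18 cases, where 6 would be had if the numbers meant nothing, so a link between same-numbered arrays was neither labelled nor settled. In the replicate block fit the change of LHW in CC-S against VISUAL had an adjusted p of 0.00821 and that of SACL1 in CC-M against VISUAL one of 0.0133, and the calls gained included the F statistic of LHW (adjusted p = 0.0173) and bHLH121 in CC-M (0.0168). It gave 7365, 4479 and 10 calls in the 3 comparisons, against 7365, 4470 and 8, and 325 against 497 off the midpoint.

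The background of calls moved too. Between CC-S and CC-M it went from 0 calls (no trend, or without CC-S replicate 3) to 847 with array weights, against 8. In CC-M against VISUAL it fell to 2450 without CC-M replicate 4, against 4470, and off the midpoint it was 25 to 775 with 1 array left out, against 497. Beyond 1.5-fold there were 1212, 484 and 0 calls in the 3 comparisons and 6 off the midpoint. Of the other named genes, 27 values lost and 27 gained a call over all settings, and 1866 kept their side of the threshold. The cause was not tested. Signal over background could not be read.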
